A study of Homo sapiens with 6 samples.

Results

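NAPRT1 encodes nicotinate phosphoribosyltransferase, the enzyme that turns nicotinic acid into nicotinate mononucleotide. It was described here together with the other genes of NAD synthesis in nascent RNA from A375 cells, an established human malignant melanoma line. Cells were treated for 48 h with 25 µM A771726, 25 µM leflunomide or the solvent DMSO, and each of the 3 groups had 2 libraries, 6 in all. All groups were the same cell line in the same medium, per the labels, and nothing there says that the duplicates were separate cultures, so p-values measure the spread between these libraries, which may be technical. Leflunomide carries a closed isoxazole ring, which cells open to give A771726, also known as teriflunomide. A771726 inhibits dihydroorotate dehydrogenase, an enzyme of pyrimidine synthesis in mitochondria, and the series title names that inhibition as its subject.

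The genes were chosen by symbol: NAPRT1, NAMPT, NADSYN1, NMNAT1, NMNAT2, NMNAT3, QPRT, NADK and NNMT. Of these 9 genes, 4 were measured, in 8 of the 22442 deposited entries (12438 symbols): NAPRT1 and NADSYN1 with 1 entry each, NMNAT2 with 2 and NADK with 4. The other 5 were not analysed here. NAPRT1 was picked because its gene body density was low with leflunomide in an earlier look at these values, so all of its values are given as a description, with no test.

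Cells make NAD along several routes. In the Preiss-Handler route NAPRT1 uses nicotinic acid, the enzymes NMNAT1, NMNAT2 and NMNAT3 add the adenylyl group, and NADSYN1 amidates the product to NAD. The salvage route starts from nicotinamide and NAMPT and shares the NMNAT enzymes, while QPRT feeds in the product of tryptophan breakdown. NADK phosphorylates NAD to NADP, and NNMT methylates nicotinamide and so takes it out of salvage.

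Global run-on sequencing (GRO-seq) lets engaged RNA polymerase extend its transcript in isolated nuclei and sequences the labelled RNA, so a gene body density reflects transcribing polymerase and not the amount of mRNA. The deposited values are densities of promoter and gene body windows, averaged by the authors over the libraries of a group, and a traveling ratio, which is promoter density over gene body density. The values of single libraries were solved from these means. Read numbers were inferred, since the authors give densities alone. The worth of 1 promoter read was taken from the commonest solved promoter values. Of the solved promoter values above 0, 79.7% with A771726, 76.7% with leflunomide and 78.3% with DMSO were multiples of that worth in either library. Library 1 of a group is the one in which 1 promoter read is worth less. It was not matched to a replicate of the labels and pairs with nothing in another group. Where the values of an entry could not be assigned to library 1 or 2, their order carries no meaning. Among the pairs given below this holds for the NADK entry NM_023018 and the NAPRT1 neighbour GSDMD with A771726. It also holds for the NADK entry NM_001198994 with leflunomide. Changes of densities are log2 ratios after adding a pseudocount (0.0022 for gene bodies, 0.01735 for promoters), which understates the change of low genes.

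The median gene body change over 8706 genes was -0.52 with A771726 and -0.06 with leflunomide against DMSO, and -0.47 for A771726 against leflunomide. Gene body changes are therefore also given relative to that median gene. How the authors scaled the libraries is not given in the sources used here, and in bulk nuclei fewer cells and less nascent RNA per cell cannot be told apart. Library medians over 1833 genes were 0.0239 and 0.0193 with A771726, 0.0317 and 0.0300 with leflunomide, and 0.0341 and 0.0292 with DMSO. No entry has a DMSO traveling ratio above 7.5, although 15.8% of entries exceed it with A771726 and 13.3% with leflunomide, so entries with a higher DMSO ratio were not analysed here and a ratio could rise past that bound in the treated groups alone. Of 11 melanoma markers 7 were measured, at unlike levels. The melanocyte lineage factor SOX10 had gene body densities of 0.273 with A771726, 0.330 with leflunomide and 0.329 with DMSO. In the same order S100A1 had 0.150, 0.236 and 0.245, and AXL had 0.0544, 0.0675 and 0.0544. Lower values were those of MITF (0.01555, 0.02255 and 0.0123) and PMEL (0.01715, 0.02235 and 0.01035), each in its densest entry. NGFR had 0.0069, 0.01005 and 0.0134, and MLANA had 0.0046, 0.00485 and 0.01515. Of 5 markers of other cell types 1 was measured, the endothelial PECAM1, at no more than 0.0083 in any group. With either compound MLANA lay below PECAM1.

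The start sites of the other measured genes are shown because NADK and NMNAT2 have entries that begin at different sites. Windows of 300 bases around RefSeq start sites (250 before to 50 after, GRCh38.p14, 5′ to 3′ on the gene's strand) were searched on both strands for the GC box core GGGCGG, or CCGCCC, set in capitals. It is present in 45% of 35116 such windows, and a match is only a description. The start site of NADSYN1 (chr11:71452953-71453252, + strand) has 5 matches and 34 CpG, against a median of 14 CpG over all windows. NADK has 3 starts on the - strand. The outermost (chr1:1779982-1780281), nearest to the entry NM_001198994, has 1 match and 6 CpG. The middle one (chr1:1778767-1779066), nearest to NM_001198993 (26 bases away) and NM_023018 (346 bases away), has 5 matches and 36 CpG. NM_023018 thus starts outside this window. The innermost (chr1:1758593-1758892), nearest to NM_001198995, has no match and 5 CpG. NMNAT2 has 2 starts on the - strand, neither with a match. The outer one (chr1:183418331-183418630), nearest to NM_015039 (222 bases away), has 18 CpG. The inner one (chr1:183304825-183305124), nearest to NM_170706, has 4. The starts of the NADSYN1 entry, NM_001198995 and NM_015039 lie 94, 67 and 222 bases from their nearest sites. If downstream, they too fall outside their windows, and the direction was not recorded here. These windows come from a later build than the hg18 of the deposited values. The promoter of NAPRT1 is not shown.
NADSYN1: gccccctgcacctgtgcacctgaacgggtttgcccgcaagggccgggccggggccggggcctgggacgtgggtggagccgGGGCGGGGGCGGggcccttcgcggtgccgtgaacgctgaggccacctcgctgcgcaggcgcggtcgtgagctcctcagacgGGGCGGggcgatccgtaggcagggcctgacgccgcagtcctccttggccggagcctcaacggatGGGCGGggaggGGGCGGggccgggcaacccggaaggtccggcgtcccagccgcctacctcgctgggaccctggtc
NADK outermost start: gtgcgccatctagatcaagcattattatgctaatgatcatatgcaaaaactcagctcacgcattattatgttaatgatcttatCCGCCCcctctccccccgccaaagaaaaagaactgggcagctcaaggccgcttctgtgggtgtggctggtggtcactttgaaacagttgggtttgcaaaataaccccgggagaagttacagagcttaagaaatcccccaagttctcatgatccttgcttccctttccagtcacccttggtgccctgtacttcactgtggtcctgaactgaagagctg
NADK middle start: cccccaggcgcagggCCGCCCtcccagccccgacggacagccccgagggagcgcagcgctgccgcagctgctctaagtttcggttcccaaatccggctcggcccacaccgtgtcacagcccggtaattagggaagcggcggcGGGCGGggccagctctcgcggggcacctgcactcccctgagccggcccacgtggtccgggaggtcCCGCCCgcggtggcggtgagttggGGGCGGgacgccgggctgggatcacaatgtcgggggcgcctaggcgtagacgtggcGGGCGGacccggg
NADK innermost start: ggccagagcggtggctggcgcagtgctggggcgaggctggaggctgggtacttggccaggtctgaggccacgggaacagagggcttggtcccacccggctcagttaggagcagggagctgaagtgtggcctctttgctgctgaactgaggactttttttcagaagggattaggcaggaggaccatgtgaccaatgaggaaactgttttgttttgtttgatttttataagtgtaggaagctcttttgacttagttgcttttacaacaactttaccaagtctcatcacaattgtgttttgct
NMNAT2 outer start: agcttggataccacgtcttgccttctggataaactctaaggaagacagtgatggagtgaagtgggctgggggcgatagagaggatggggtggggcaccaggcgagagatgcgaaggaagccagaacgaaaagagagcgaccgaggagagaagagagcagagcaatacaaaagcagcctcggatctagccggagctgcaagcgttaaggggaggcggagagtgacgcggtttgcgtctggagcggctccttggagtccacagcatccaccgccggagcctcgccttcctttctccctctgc
NMNAT2 inner start: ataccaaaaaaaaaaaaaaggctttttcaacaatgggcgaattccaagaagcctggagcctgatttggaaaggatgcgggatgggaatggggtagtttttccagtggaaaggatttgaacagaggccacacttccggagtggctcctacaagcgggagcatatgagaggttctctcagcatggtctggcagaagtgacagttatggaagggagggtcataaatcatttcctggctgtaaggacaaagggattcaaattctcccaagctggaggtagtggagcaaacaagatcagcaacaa

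Gene body transcription of NAPRT1 (NM_145201) was much lower with leflunomide than in the other groups. The libraries had gene body densities of 0.0438 and 0.0360 with A771726, 0.0100 and 0.0144 with leflunomide, and 0.0545 and 0.0797 with DMSO. No 2 groups overlapped, with leflunomide lowest, A771726 between and DMSO highest. Of the 4584 genes with library values solved in all 3 groups, 54.6% had both A771726 libraries below both DMSO libraries. In 20.6% both leflunomide libraries lay below both DMSO libraries, and in 2.40% both A771726 libraries lay above both of leflunomide. The authors' means were 0.0399, 0.0122 and 0.0671 in these groups. The change in the means was -2.27 for leflunomide against DMSO, -0.72 for A771726 against DMSO and 1.55 for A771726 against leflunomide. Relative to the median gene these were -2.21, -0.20 and 2.02 on the log2 scale, so the A771726 value lies near that of the typical gene. Counted from the lowest change, NAPRT1 ranked 35 of 8706 genes with leflunomide, 2993 with A771726, and 8678 for A771726 against leflunomide.

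**Figure D1:**
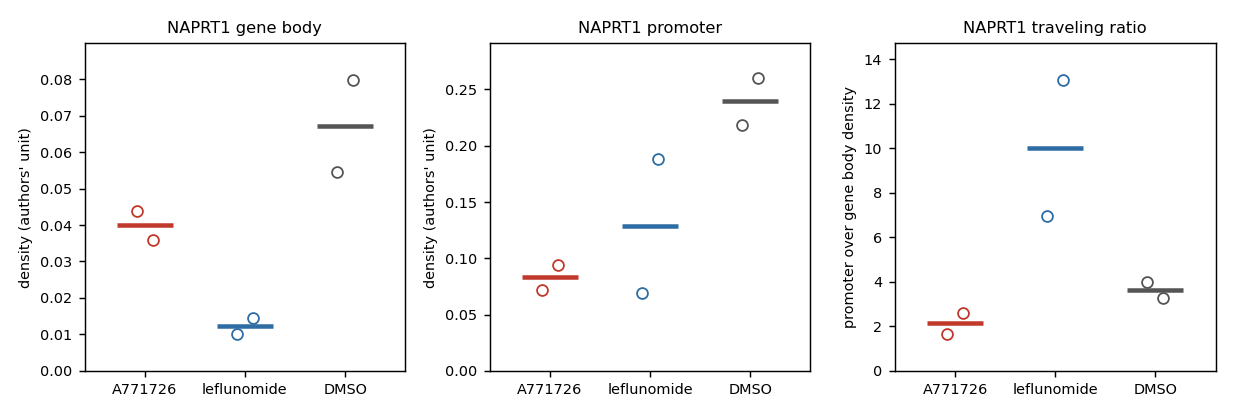
NAPRT1 gene body density, promoter density and traveling ratio (y axes, from 0) in each library (points) with A771726, leflunomide and DMSO; the bar is the authors' group mean. Gene body densities are 0.0438 and 0.0360, 0.0100 and 0.0144, and 0.0545 and 0.0797, and the traveling ratio is highest with leflunomide, at 6.94 and 13.1.

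At the NAPRT1 promoter the values rest on few reads, as inferred from the densities. The promoter densities were 0.0722 and 0.0939 with A771726 (3 reads in each library), 0.0694 and 0.188 with leflunomide (2 and 5 reads) and 0.219 and 0.260 with DMSO (5 reads in each). Group sums were 6 reads with A771726 (exact Poisson 95% interval 2.20 to 13.1), 7 with leflunomide (2.81 to 14.4) and 10 with DMSO (4.80 to 18.4). These intervals cover counting error only, since PCR copies are not independent molecules, and a read has another worth in each library. Both compounds had lower means than DMSO, and the leflunomide libraries spanned those of A771726.

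The traveling ratio of NAPRT1 was 1.65 and 2.61 with A771726, 6.94 and 13.1 with leflunomide, and 4.01 and 3.26 with DMSO. The leflunomide libraries lay above all others, and the A771726 libraries below both DMSO libraries. The share of all genes with these layouts of the ratio was not counted. In the means the ratio was at least 2-fold higher with leflunomide in 27.9% of 5173 genes. In the authors' deposited table the fold of the mean ratio over DMSO is 0.585 with A771726 and 2.75 with leflunomide. In both the numerator and the denominator NAPRT1 had lower means with leflunomide than with DMSO, the gene body by more.

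Among the 3 measured genes past the filter on low values, NAPRT1 alone was at least 2-fold lower with leflunomide at the gene body (as in 4.49% of all genes) and NAPRT1 alone was as much higher with A771726 than with leflunomide (1.03% of all genes). None was 2-fold lower or higher with A771726 against DMSO, where 18.5% and 0.839% of all genes were. Centred on the median gene, the shares of all genes were 5.73% lower and 3.60% higher with A771726 against DMSO, and 3.77% lower and 3.38% higher with A771726 against leflunomide, and the counts of NAD synthesis genes were the same. NAPRT1 was picked by the first of these values, so nothing is read from its place in the count. The comparison between the compounds and the traveling ratio with leflunomide use the same leflunomide gene body value. Nothing is read from the place of NAPRT1 in those counts either. At the promoter 1 of 3, NAPRT1, was at least 2-fold lower and none higher with A771726 (26.0% and 20.8% of all genes). With leflunomide 1, NADK by its innermost entry, was higher and none lower (30.6% and 16.0%). The same entry was lower, and none was higher, with A771726 than with leflunomide (30.6% and 13.5%). Both NADK calls rest on 1 read in 1 leflunomide library, with the other groups listed at 0. Centring gave 2 lower ones with leflunomide, NAPRT1 and NADSYN1 (22.0% of all genes higher, 19.7% lower) and 0 between the compounds (19.3% higher, 21.0% lower). The mean traveling ratio was above 0 in every group for 2 of the 3, NAPRT1 and NADSYN1. Neither differed by as much with A771726 (34.6% of all genes higher, 17.1% lower). NAPRT1 was higher with leflunomide (27.9% higher, 15.3% lower) and lower with A771726 than with leflunomide (26.9% higher, 20.9% lower). Centring put both below DMSO by 2-fold with A771726 (24.0% of all genes higher, 24.1% lower), and with leflunomide NAPRT1 above and NADSYN1 below (21.2% higher, 20.8% lower). The NADSYN1 promoter and ratio calls rest on 2 reads with A771726, 2 with leflunomide and 3 with DMSO, all in library 2.

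**Figure D2:**
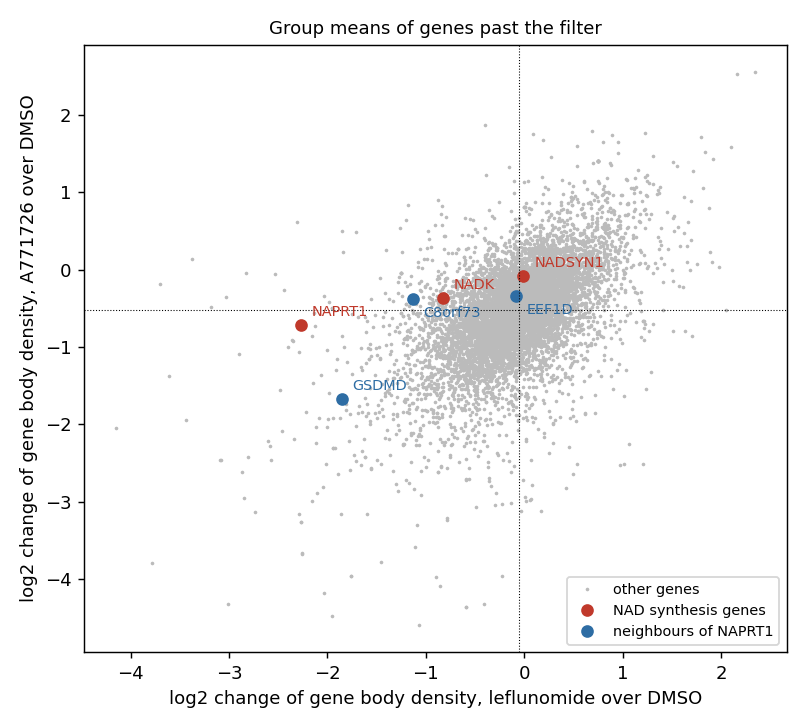
Gene body log2 changes of 8706 genes (grey), as deposited and not centred, with leflunomide against DMSO (x axis) and with A771726 against DMSO (y axis), with the NAD synthesis genes past the filter and 3 neighbours of NAPRT1 marked and dotted lines at the median gene (-0.06 and -0.52). NAPRT1 lies at -2.27 with leflunomide and -0.72 with A771726, while GSDMD lies at -1.85 and -1.67.

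NADSYN1 (NM_018161), which makes the final amide of NAD in the same route, showed close gene body densities in the 3 groups. The libraries had 0.0142 and 0.0114 with A771726, 0.0130 and 0.0141 with leflunomide, and 0.0108 and 0.0165 with DMSO. All 3 groups overlap, and the DMSO libraries span the rest. By limma, the gene-wise linear model with Benjamini-Hochberg adjustment over 4584 genes, the change was -0.06 with A771726 (95% interval -0.88 to 0.75, adjusted p = 0.915) and 0.01 with leflunomide (-0.80 to 0.83, adjusted p = 0.9995). Relative to the median gene these are 0.47 and 0.05. The NADSYN1 promoter reads lie in library 2 of each group, 2 with A771726, 2 with leflunomide and 3 with DMSO, so its promoter density and traveling ratio cannot be ranked at this depth.

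NADK, the cytosolic NAD kinase, was listed under 4 entries that start at different sites of 1 gene and share sequence, so their values are not independent. The entry NM_001198994, which entered the fit, had gene body densities of 0.0183 and 0.0089 with A771726, 0.0250 and 0.0211 with leflunomide and 0.0158 and 0.0227 with DMSO. The A771726 libraries overlapped those of DMSO and lay below those of leflunomide, as in 55.0% of 4584 genes, and the leflunomide libraries overlapped those of DMSO. The limma change was -0.49 with A771726 (-1.41 to 0.43, adjusted p = 0.447) and 0.25 with leflunomide (-0.67 to 1.17, adjusted p = 0.9995), or 0.05 and 0.29 relative to the median gene. With A771726 the change was -0.93 without A771726 library 1, -0.05 without A771726 library 2 and -0.25 without DMSO library 2, and with leflunomide it was 0.02 without DMSO library 1 and 0.48 without DMSO library 2. The gene body libraries of NM_023018 had 0.0094 and 0.0183 with A771726, 0.0153 and 0.0166 with leflunomide and 0.0140 and 0.0188 with DMSO, and all groups overlapped. Those of NM_001198993 had 0.0186 and 0.0093 with A771726, 0.0192 and 0.0208 with leflunomide and 0.0139 and 0.0226 with DMSO, where the leflunomide libraries lay between those of DMSO. By the entry with the highest density, NM_001198995, the authors' means were 0.0229 with A771726, 0.0161 with leflunomide and 0.0302 with DMSO, a change of -0.37 and -0.82. The mean over all 4 entries gave -0.15 with leflunomide, so the sign with leflunomide differs between entries.

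Mean promoter densities of the NADK entries were highest with leflunomide, on few reads. At the outermost start, NM_001198994 had 0.0157 with A771726, 0.0489 with leflunomide and 0.0219 with DMSO, with traveling ratios of 1.76, 2.21 and 1.39. NM_023018 starts 346 bases from the middle start, outside the window shown. Its mean promoter densities, from the authors, were 0.0123 with A771726, 0.217 with leflunomide and 0.104 with DMSO. The reads were 6 in each leflunomide library and 0 and 4 in those of DMSO. With A771726 its library values were 0 and 0.0246, which could not be turned into reads. There 1 read is worth 0.0241 or 0.0313, by library. The mean traveling ratios were 0.672, 13.6 and 5.53, a fold over DMSO of 0.122 with A771726 and 2.46 with leflunomide in the authors' deposited table. For NM_001198993, with the same nearest RefSeq start, the mean promoter densities were 0.0121, 0.108 and 0.0438, and the folds of the ratio were 0.206 and 1.72. Its reads were 1 and 0 with A771726, 3 and 3 with leflunomide, and 2 and 0 with DMSO. At the innermost start, NM_001198995 is listed at a promoter density of 0 with A771726 and DMSO. With leflunomide it is listed at 0.0188, which is 1 read in 1 library. By limma no NADK or NADSYN1 promoter change passed the threshold (0 of 2 genes in each comparison), where 0.208% of 4809 genes were called higher with each compound against DMSO and 0.0416% lower with A771726. In the fit of the traveling ratio NAPRT1 was the only NAD synthesis gene, so none was tested there, and 0.570% of 1753 genes were called higher with leflunomide.

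NMNAT2, a member of the NMNAT enzymes known mainly from neurons, was the lowest of the 4 genes. Its entry NM_170706 had mean gene body densities of 0.0049 with A771726, 0.0083 with leflunomide and 0.0095 with DMSO, and NM_015039 had 0.0024, 0.0032 and 0.0040. Both entries are listed at a promoter density of 0 in every group, so no library values could be solved, and the gene lay below the filter, at the 27th percentile of all symbols.

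**Figure D3:**
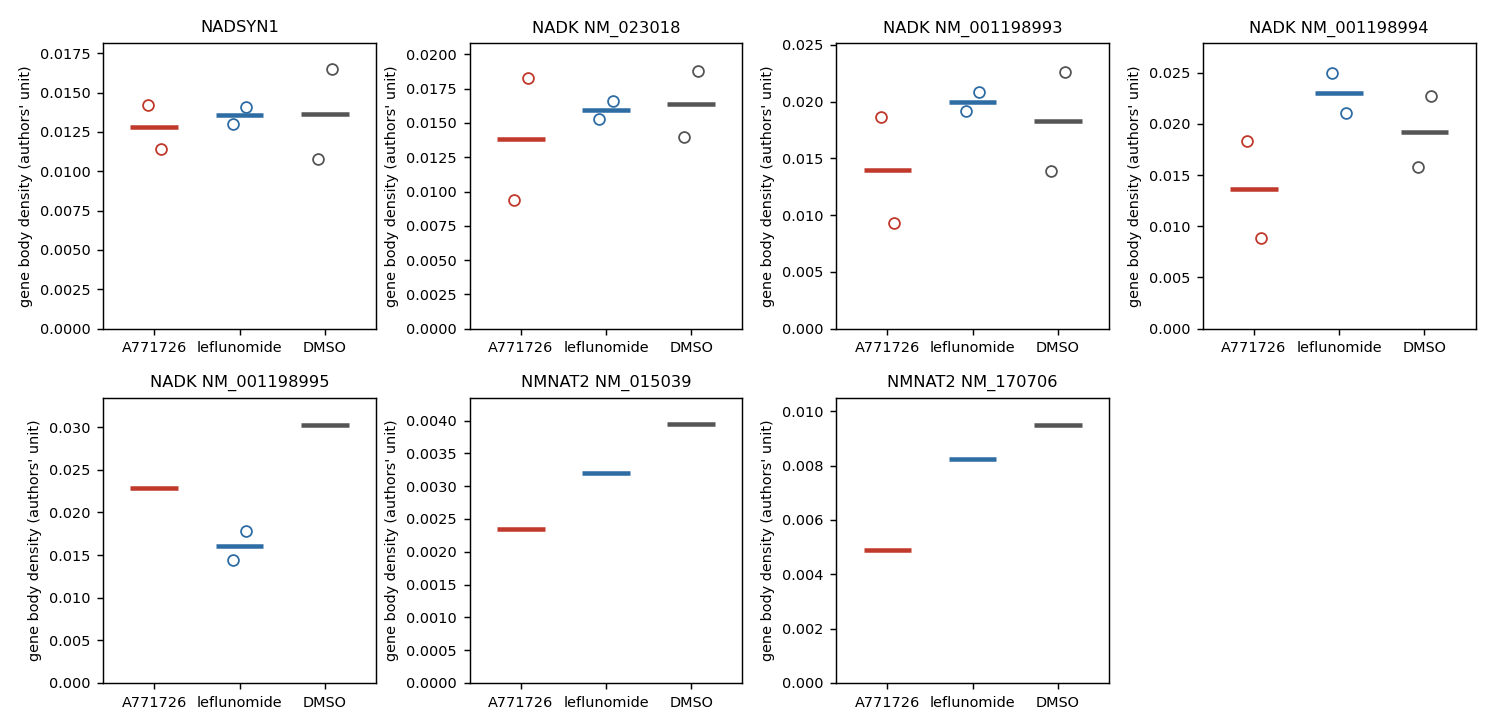
Gene body density (y axis, from 0) of the NADSYN1, NADK and NMNAT2 entries with A771726, leflunomide and DMSO; points are libraries where they could be solved and bars are the authors' means, and the sideways offset of points carries no meaning. The NADSYN1 libraries overlap in the 3 groups, and NMNAT2 has means alone.

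Densities of the 4 genes can be set in order if they are per length, as their quotient, the traveling ratio, implies. With DMSO the order of mean gene body density was NAPRT1 (0.0671), NADK (0.0302 in its densest entry), NADSYN1 (0.0137) and NMNAT2 (0.0095). With leflunomide NAPRT1 stood at 0.0122, below NADSYN1 at 0.0136, but the NAPRT1 libraries (0.0100 and 0.0144) span those of NADSYN1 (0.0130 and 0.0141), so these neighbours in the order did not differ beyond their spread. With A771726 NAPRT1 again stood first, at 0.0399.

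The compounds were compared with each other at the matched dose of 25 µM and 48 h, as 1 pair in 2 genes. For A771726 against leflunomide, which differ by the opened isoxazole ring, the limma gene body difference was -0.08 for NADSYN1 (-0.89 to 0.74, adjusted p = 0.895). For NADK, by the entry NM_001198994, it was -0.74 (-1.66 to 0.18, adjusted p = 0.355), each adjusted over all fitted genes. Neither limma difference passed the threshold, and the NADK interval allows a difference of over 2-fold. The NADK limma value was -1.18 without A771726 library 1 and -0.30 without A771726 library 2. By the densest NADK entry, NM_001198995, the group means gave 0.45, the opposite sign. The mean over entries gave -0.20, so the sign between the compounds differs between NADK entries. NAPRT1 differed by 1.55 between the compounds, a description only. Over the 4584 fitted genes limma called 0 between the compounds and 0 with leflunomide against DMSO. It called 2 with A771726 against DMSO (0.0436%, both lower), so 0 of the 2 NAD genes is close to the background. At an unadjusted p under 0.05 there were 204 genes with leflunomide (4.45%), 983 with A771726 (21.4%) and 690 between the compounds (15.1%). This fit was not centred, and its median changes were -0.04, -0.54 and -0.51 in these comparisons.

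Genes around NAPRT1 were taken from a list and placed by their order in RefSeq (GRCh38.p14). Of the 16 listed symbols 12 were measured. Of these, 9 lie within 5 places of NAPRT1, while SCRIB, PUF60 and NRBP2 lie 11, 12 and 13 places away. With leflunomide 2 of the 12 were at least 2-fold lower and none was higher (4.49% and 1.84% of all genes). With A771726 2 were lower and 1 was higher (18.5% and 0.839%). Within 5 places, 2 of the 9 were lower with leflunomide and 1 with A771726. GSDMD, the pore-forming protein of pyroptosis, lies 2 places from NAPRT1. Its gene body densities were 0.0128 and 0.0134 with A771726, 0.0135 and 0.0091 with leflunomide, and 0.0403 and 0.0529 with DMSO. Both libraries of each compound lay below both DMSO libraries, a layout that 54.6% of genes had with A771726 and 20.6% with leflunomide. The limma change was -1.66 with A771726 (-2.44 to -0.88, unadjusted p = 0.00123, adjusted p = 0.134) and -1.86 with leflunomide (-2.64 to -1.08, unadjusted p = 0.000608, adjusted p = 0.558), with a difference of 0.20 for A771726 against leflunomide (-0.58 to 0.98, adjusted p = 0.709). Neither change against DMSO passed the threshold; relative to the median gene the means gave -1.15 with A771726 and -1.80 with leflunomide.

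C8orf73, also called MROH6, is the next gene to NAPRT1 and lies on the same strand. It had 0.0405 and 0.0263 with A771726, 0.0112 and 0.0268 with leflunomide, and 0.0482 and 0.0404 with DMSO. Both leflunomide libraries lay below both DMSO libraries, as in 20.6% of genes, and the higher A771726 library reached the lower DMSO library. The limma change was -0.41 with A771726 (-1.45 to 0.63, adjusted p = 0.565, but 0.10 after centring the libraries) and -1.23 with leflunomide (-2.27 to -0.20, unadjusted p = 0.0254, adjusted p = 0.9995). With leflunomide it was -0.68 without leflunomide library 1 and -1.79 without leflunomide library 2, and with A771726 it was -0.70 without A771726 library 1 and -0.12 without A771726 library 2. Whether reads were counted by strand is not given in the sources used here, and reads running past a gene end cannot be told apart from those of the next gene. EEF1D, on the other side of NAPRT1, a subunit of a translation elongation factor, had means of 0.0457 with A771726, 0.0549 with leflunomide and 0.0582 with DMSO, changes of -0.34 and -0.08, or 0.18 and -0.02 relative to the median gene. The change of RHPN1 was 1.12 with A771726 and 0.76 with leflunomide, and that of NRBP2 was -1.64 and -0.61. The remaining neighbours ranged from -0.68 to 0.34 with A771726 and from -0.36 to 0.04 with leflunomide. By limma 0 of 8 tested neighbours were called at the gene body in any comparison, where 0.0436% of 4584 genes were with A771726 against DMSO. At the promoter 0 of 8 were called. There 0.208% of 4809 genes were higher with each compound against DMSO and 0.0416% lower with A771726. For the traveling ratio 0 of 2 were called, where 0.570% of 1753 genes were higher with leflunomide. These counts are close to the background.

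**Figure D4:**
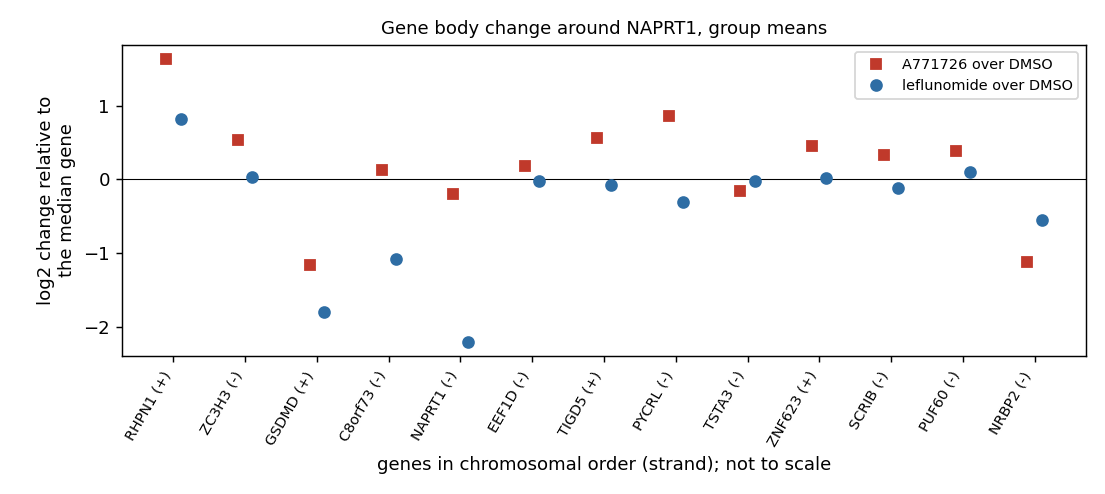
Gene body log2 change relative to the median gene (y axis) of NAPRT1 and its measured neighbours in chromosomal order (x axis, not to scale), with A771726 and with leflunomide against DMSO, from the group means. On this scale NAPRT1 lies at -0.20 with A771726 and -2.21 with leflunomide, GSDMD at -1.15 and -1.80, C8orf73 at 0.13 and -1.08, and EEF1D at 0.18 and -0.02.

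Other genes of NAD metabolism were read from lists. Of 26 symbols for de novo synthesis, ribosides and transport, 9 were measured, 2 passed the filter and none was 2-fold different in any comparison of the gene body. The surface nucleotidase NT5E was at -0.54 with A771726 and -0.10 with leflunomide, and the mitochondrial transhydrogenase NNT at -0.47 and 0.31. Of 25 NAD-consuming enzymes 13 were measured and 9 passed, with medians of -0.48 with A771726 and 0.15 with leflunomide, against -0.52 and -0.06 over all genes. PARP6, a mono-ADP-ribosyltransferase, was the only one past 2-fold against DMSO, lower with A771726 as 18.5% of all genes were, with means of 0.0083 with A771726, 0.0212 with leflunomide and 0.0197 with DMSO, and a limma change of -1.07 with A771726 (-1.83 to -0.31, adjusted p = 0.169). Relative to the median gene its change in the means was -0.54 with A771726, which is not past 2-fold. Between the compounds PARP6 and the deacetylase SIRT1 were at least 2-fold lower with A771726 in the means (-1.15 and -1.12), where 12.4% of all genes were, but relative to the median gene they were at -0.68 and -0.65 and no longer past 2-fold.

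The genes most like NAPRT1 were taken as the 5 with the smallest Euclidean distance to it in the pair of log2 changes against DMSO, from 3 group means and among 7847 genes within 4-fold of its density. They were TEKT4 (distance 0.14), TMEM198 (0.18), LAG3 (0.21), PCDHB17 (0.22) and TCEAL8 (0.31). TEKT4 had mean gene body densities of 0.0138 with A771726, 0.0039 with leflunomide and 0.0244 with DMSO.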

How the data were processed

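GRO-seq was done on 6 libraries of A375 cells, 2 per group. Bowtie 0.12.9, bedtools and the build hg18 are named, without their roles, per the submitters' processing notes. The deposited promoter and gene body values are signal (read densities) that the authors averaged per group, per the file headers, which write A771762, read here as A771726. The traveling ratio and its fold over DMSO are the authors' deposited ratio columns. What the windows span, how libraries were scaled, their depth, the use of strand and the annotation are each not given in the sources used here. No sample column was left unmapped (0).

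The entry with the highest mean gene body density was kept per symbol, with symbols at or above the 30th percentile: 8706 for gene bodies, 8837 for promoters and 5173 for ratios. Library values were solved from the mean densities and ratios (single solutions for 93.5% of eligible entries with A771726, 93.6% with leflunomide and 90.3% with DMSO, to 0.0001); reads behind gene body values cannot be given. limma 3.58.1 (R 4.3.3, trend and robust) tested log2(density + pseudocount), or the log2 ratio, in 6 libraries, with Benjamini-Hochberg adjustment and a threshold of 0.05. Only genes with single solutions in all 3 groups were fitted, which needs a promoter density above 0 in each group. They were 4584 for gene bodies, 4809 for promoters and 1753 for ratios, the last with a ratio above 0 in every library. Scripts used Python 3.11.15 and scipy 1.17.1 and were tested on simulated data.

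Every entry of the 9 rule genes was described. Other pathway genes were named if past 2-fold in the gene body with either compound against DMSO (PARP6). NT5E, NNT and SIRT1 fall outside that rule and were named after their values were seen, to name the members of small counts. Also named were the neighbours and the 5 genes most like NAPRT1. Members and lists were chosen with earlier results of these data known. The alternatives tried were pseudocount, filter, centring, entry choice, limma options and leaving out a library. Promoters came from RefSeq GRCh38.p14.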

Additional observations from a re-analysis of the deposited data

How the results depend on the processing

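No paired analysis was possible because the deposited columns are group means and the solved libraries could not be matched to the replicate letters. The counts of NAD synthesis genes past 2-fold in the gene body did not move under any alternative run, nor did those of limma, which called 0 of them throughout (0 to 0 with a library left out). Counts at the promoter and of the traveling ratio did move, and the cause was not tested. At the promoter the count with leflunomide was 1 and became 0 with a pseudocount 5 times larger, with a 50th percentile filter and with the mean over entries, and 2 after centring. With A771726 it was 1 and became 0 with the larger pseudocount and 2 with no pseudocount or the mean over entries. Between the compounds it was 1 and became 0 with the larger pseudocount, none, the stricter filter or centring. For the traveling ratio centring gave 2 with leflunomide and 2 with A771726, and the mean over entries gave 2, 1 and, between the compounds, 2. NADSYN1 turned sign in some settings. With a library left out it ranged from -0.25 (without DMSO library 1) to 0.28 with leflunomide, from -0.32 to 0.20 with A771726, and from -0.21 to 0.0592 between the compounds. Centring the libraries gave 0.45 with A771726 and 0.40 between the compounds. GSDMD between the compounds ranged from -0.0375 to 0.44 with a library left out, and C8orf73 with A771726 became 0.10 after centring. The NAPRT1 estimate ranged from -2.53 to -1.99 with leflunomide, -0.97 to -0.44 with A771726 and 1.34 to 1.78 between them with a library left out. Adjusted p over the alternatives ranged for GSDMD from 0.113 to 0.340 with A771726 and from 0.325 to 1 with leflunomide, and for NADK from 0.173 to 0.974 and from 0.959 to 0.9998. The replicate block was not run. Promoter values rest on 0 to 6 reads a library in the NAD synthesis genes where reads could be given, which limits what they can rank.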
